A study of Homo sapiens with 2 samples.

Results

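The cytosolic ribosomal protein genes encode the proteins of the ribosome that works in the cytoplasm. They were taken from the RefSeq table for GRCh38 by symbol: protein-coding genes on chromosomes 1 to 22 and X named RPL or RPS with a number and an optional A, X, L or hyphen suffix, plus RPLP0 to RPLP2 and RPSA, without the RPS6K kinases and without pseudogenes. The rule found 88 of the 19974 protein-coding genes, 55 of the large 60S subunit and 33 of the small 40S subunit. They comprised 77 core genes, 8 paralogues (RPL3L, RPL7L1, RPL10L, RPL22L1, RPL26L1, RPL36AL, RPL39L and RPS27L) and 3 readthrough loci (RPL17-C18orf32, RPL36A-HNRNPH2 and RPS10-NUDT3). The genes lay on 21 of the 23 chromosomes used, with none on chromosomes 7 and 21, and 5 lay on the X.

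The cells were an enzalutamide-resistant form of C4-2B, a castration-resistant human prostate cancer line that descends from LNCaP. They had grown for at least 6 months with enzalutamide, an inhibitor of the androgen receptor, and every library came from these resistant cells. CUT&Tag, which uses an antibody to bring a transposase to a histone mark, was run on 100000 cells per sample with 14 PCR cycles, once for H3K27ac and once for H3K4me1. The secondary antibody given in the labels is directed against mouse, although both primary antibodies come from rabbit, and its part in the pileups was not tested. With 1 library per mark, no parental cells and no library without a specific antibody, nothing here has a replicate check and no test between conditions could be made. In bulk cells, more marked gene copies and more mark on each copy cannot be told apart.

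Each ribosome needs its proteins in fixed proportions, and the genes for them are scattered over the genome but expressed together at high levels in growing cells. Their mRNAs usually begin with a C followed by more pyrimidines, the terminal oligopyrimidine or TOP motif, through which the kinase mTOR and the RNA-binding protein LARP1 set their translation. H3K27ac marks active promoters and enhancers, while H3K4me1 marks enhancers and the flanks of promoters.

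The sequences below show what the starts of these genes look like. They were chosen because the results turn on them: the deepest H3K27ac peaks at a listed start (RPS28, RPL37A, RPS6, RPL27A and RPL22), the shallowest H3K4me1 peak at a gene end (RPL24), the longest pyrimidine run (RPL7A), a core gene with no H3K4me1 at its ends (RPS4X), a marked paralogue (RPL22L1) and an unmarked one (RPL10L). Each runs from 5′ to 3′ over the 100 bases before the RefSeq start and the 20 bases from the start on, on GRCh38.p14. Capitals mark the run of C and T that covers or touches the start, so RPL10L, with no such run, has none.
RPS28 (chr19:8321396-8321515, plus strand): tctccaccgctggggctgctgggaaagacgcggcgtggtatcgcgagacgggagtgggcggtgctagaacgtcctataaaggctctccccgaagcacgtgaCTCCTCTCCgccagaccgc
RPL37A (chr2:216498744-216498863, plus strand): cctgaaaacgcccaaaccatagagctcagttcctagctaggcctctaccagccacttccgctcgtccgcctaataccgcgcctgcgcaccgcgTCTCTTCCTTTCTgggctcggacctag
RPS6 (chr9:19380217-19380336, minus strand): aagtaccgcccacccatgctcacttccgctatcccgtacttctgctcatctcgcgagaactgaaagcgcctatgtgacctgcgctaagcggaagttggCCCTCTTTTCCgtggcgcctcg
RPL27A (chr11:8682692-8682811, plus strand): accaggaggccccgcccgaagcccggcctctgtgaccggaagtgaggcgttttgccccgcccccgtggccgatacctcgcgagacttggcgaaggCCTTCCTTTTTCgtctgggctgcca
RPL22 (chr1:6199576-6199695, minus strand): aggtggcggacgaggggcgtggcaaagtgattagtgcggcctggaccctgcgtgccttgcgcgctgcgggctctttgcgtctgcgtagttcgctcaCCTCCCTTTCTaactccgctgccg
RPL24 (chr3:101686699-101686818, minus strand): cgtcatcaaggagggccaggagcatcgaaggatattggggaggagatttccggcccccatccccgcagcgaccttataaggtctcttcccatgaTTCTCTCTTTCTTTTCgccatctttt
RPL7A (chr9:133348118-133348237, plus strand): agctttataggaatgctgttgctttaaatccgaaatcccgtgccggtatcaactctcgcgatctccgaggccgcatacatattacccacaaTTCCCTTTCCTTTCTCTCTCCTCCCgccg
RPS4X (chrX:72277229-72277348, minus strand): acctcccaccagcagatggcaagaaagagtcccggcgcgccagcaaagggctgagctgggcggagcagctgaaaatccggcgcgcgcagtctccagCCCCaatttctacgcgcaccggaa
RPL22L1 (chr3:170870176-170870295, minus strand): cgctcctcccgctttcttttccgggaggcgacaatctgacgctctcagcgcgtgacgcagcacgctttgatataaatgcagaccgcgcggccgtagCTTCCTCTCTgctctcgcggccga
RPL10L (chr14:46651762-46651881, minus strand): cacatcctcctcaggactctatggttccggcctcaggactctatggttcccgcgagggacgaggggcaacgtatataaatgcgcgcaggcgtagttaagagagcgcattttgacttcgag

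RefSeq promoter sequences were matched for 70 of the 88 genes. The others include RPL3L, RPL5, RPL7, RPL37, RPL39L, RPS10-NUDT3 and RPS20. The pyrimidine run at the start had a median of 10 bases (interquartile range 3.25 to 13), against 2 (1 to 4) over all 15812 genes with a listed start. A run of at least 8 bases was present at 45 of the 70 starts (64.3%, exact Clopper-Pearson 95% interval 51.9 to 75.4), against 8.23% of all starts. A C at the start followed by 4 pyrimidines, the form of a TOP mRNA, was present at 44 of 70 (62.9%), against 4.59%. RPL7A had the longest run, 25 bases, and RPL39, a small protein near the exit tunnel of the ribosome, had 22.

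Nearly all of these genes carried H3K27ac. A peak lay within 1 kb of a gene end at 85 of the 88 genes, against a background of 62.3% of all protein-coding genes. H3K4me1 lay there at 82 genes, against 65.6%, and both marks at the same 82 genes, against 58.9%. All 77 core genes had H3K27ac and 75 of them had H3K4me1. The genes without either mark were the paralogues RPL10L, RPL26L1 and RPL39L, and those with H3K27ac alone were RPL19 and RPS4X, core proteins of the 60S and 40S subunits, and the readthrough locus RPL17-C18orf32. Ribosomal protein genes are short, with a median length of 5092 bp. Of the 8983 protein-coding genes of at most 20000 bp, 54.6% had H3K27ac and 57.0% had H3K4me1 at an end.

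Peak depth is given as the number of fragments piled up at the summit, recovered from the deposited fold enrichment and p-value. Whether read pairs or single reads were counted, and whether PCR duplicates were removed, is not given in the sources used here. A pileup is followed by its exact Poisson 95% interval and a share by its Clopper-Pearson 95% interval, which cover counting error only. The H3K27ac list held 64784 peaks with a median pileup of 13 fragments, and the H3K4me1 list held 139511 with a median of 18, so pileups of the 2 marks are compared below only beside the same comparison over all genes. As a check of the label, all 10 prostate luminal markers listed in the analysis had both marks at an end. Of 6 blood markers, 3 had H3K27ac (4 to 31 fragments) and 2 had H3K4me1, CD3E with 59 fragments and SPI1 with 33. Of 5 stromal markers none had H3K27ac and 1 had H3K4me1, COL1A1 with 14. Of the 3 basal markers KRT5, KRT14 and TP63, none had H3K27ac and 2 had H3K4me1 (6 and 16 fragments).

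H3K27ac summits at the ribosomal protein genes were deeper than at most marked genes. The 85 marked genes had a median of 112 fragments (interquartile range 85 to 144, range 32 to 413), against 70 (35 to 112) over all 12435 marked genes. The pileup exceeded the all-gene median at 74 of the 85 genes, against 49.8% of all marked genes. A pileup of at least 100 fragments was found at 48 genes, against 31.1% of all marked genes, and of at least 50 at 83, against 64.6%. The local background was also higher, so the deposited fold enrichment differed less, with a median of 14.9 against 12.7. The median background was 6.63 fragments, against 4.23 over all marked genes, and pileup and background had a Spearman correlation of 0.75 across 75 core genes of the same library. With no control library, the local background may hold fragments of the peak itself, so this correlation cannot separate a peak from its surroundings. The part of the surroundings in the deeper pileups was not tested. The 60S genes had a median of 113 fragments and the 40S genes 110, so the subunits lay close together. H3K4me1 did not stand above the other genes in this way. Its median was 33 fragments (19 to 43.75, range 7 to 167), against 35 (21 to 57), and 37 of 82 genes exceeded the all-gene median, against 49.5%.

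**Figure D1:**
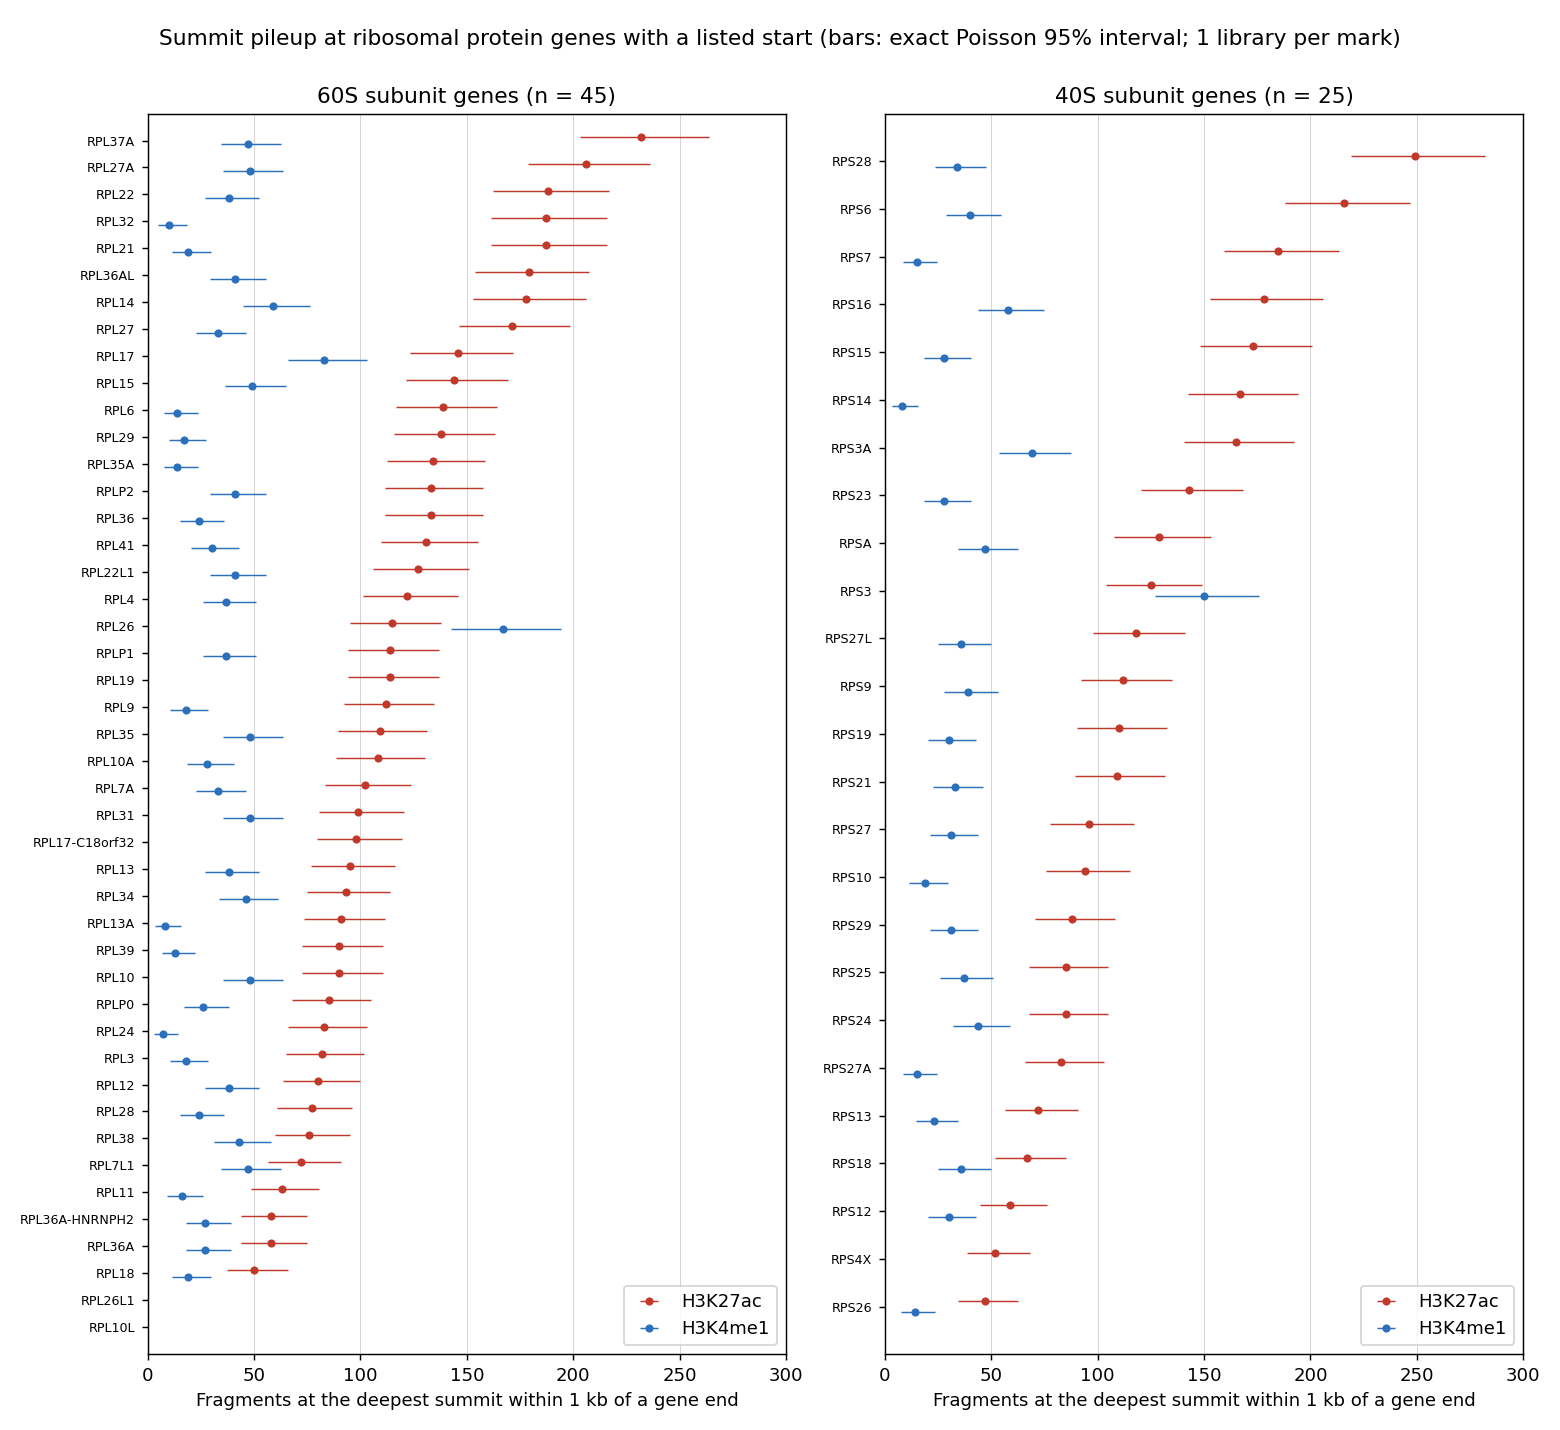
Fragments at the deepest H3K27ac (red) and H3K4me1 (blue) summit within 1 kb of an end of each of the 70 ribosomal protein genes with a listed start, 60S genes on the left and 40S genes on the right, ordered by H3K27ac, with exact Poisson 95% intervals; genes without a point had no peak. RPS28 has the deepest H3K27ac summit of those shown, at 249 fragments, and RPL26 and RPS3 are the genes where H3K4me1 lies to the right of H3K27ac.

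The balance of the marks leaned towards H3K27ac. At 79 of the 82 genes with both marks the H3K27ac pileup was the higher, against 75.2% of all genes with both, and at 77 the H3K27ac interval lay wholly above the H3K4me1 interval, against 50.7%. The ratio of the pileups had a median of 3.27 (interquartile range 2.42 to 5.41), against 1.78 (1.02 to 2.94) over 11756 genes. RPL26, RPS3 and RPS20 were the genes where H3K27ac was not higher. The deepest summits of the 2 marks can lie at different ends of a gene. At RPS3 they lay 142 bp (H3K27ac, 125 fragments) and 23040 bp (H3K4me1, 150 fragments) from the start. The ratio was highest at RPS14 (20.9) and RPL32 (18.7). RPS14, a 40S protein whose loss contributes to the anaemia of the 5q- syndrome, held 167 fragments of H3K27ac (143 to 194) but 8 of H3K4me1 (3.45 to 15.8).

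Among the 60S genes, RPL5 had the deepest H3K27ac summit. RPL5 binds the 5S ribosomal RNA together with RPL11, and when free of the ribosome the 2 proteins can bind MDM2, the ubiquitin ligase of p53. Its summit held 413 fragments (374 to 455) at a deposited fold enrichment of 28.5, with 74 H3K4me1 fragments (58.1 to 92.9) at the same end, where DIPK1A also has an end. RPL11 held 63 (48.4 to 80.6) and 16 (9.15 to 26.0), so these partners in 1 complex lay far apart in depth for both marks. RPL37, a zinc-binding protein, followed RPL5 with 277 fragments (245 to 312) and 86 of H3K4me1 (68.8 to 106). RPL37A held 232 (203 to 264) and 47 (34.5 to 62.5), in a peak at chr2:216498688-216499277 that covers the pyrimidine run printed above. RPL27A held 206 (179 to 236) and 15 (8.40 to 24.7) at its start, beside an end of TRIM66. RPL22, an RNA-binding protein that the ribosome can do without, held 188 (162 to 217) and 38 (26.9 to 52.2). Next came RPL21 and RPL32 with 187 each (161 to 216), and their H3K4me1 summits held 19 (11.4 to 29.7) and 10 (4.80 to 18.4). The intervals of RPL27A, RPL22, RPL21 and RPL32 overlap, so counting error alone leaves their order unsettled.

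Among the 40S genes, RPS28 and RPS6 led. RPS28 held 249 H3K27ac fragments (219 to 282) and 34 of H3K4me1 (23.5 to 47.5), next to an end of NDUFA7. RPS6, the ribosomal protein that the S6 kinases phosphorylate downstream of mTOR, held 216 (188 to 247) and 40 (28.6 to 54.5). RPS7, which like RPL5 can bind MDM2, held 185 (159 to 214) and 15 of H3K4me1 (8.40 to 24.7). The shallowest H3K27ac summit of all marked genes was at RPS20, with 32 fragments (21.9 to 45.2) and the same number for H3K4me1. RPS26, a protein at the mRNA exit site that is mutated in Diamond-Blackfan anaemia, held 47 (34.5 to 62.5) and 14 (7.65 to 23.5). RPL18 with 50 (37.1 to 65.9) and RPS4X with 52 (38.8 to 68.2) came next. The interval of RPS20 overlaps those of RPS26, RPL18 and RPS4X. It lies wholly below the interval of RPS28.

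The stalk of the large subunit, which recruits translation factors, is built from RPLP0, RPLP1 and RPLP2. Their H3K27ac summits held 85 (67.9 to 105), 114 (94.0 to 137) and 133 fragments (111 to 158). Their H3K4me1 summits held 26 (17.0 to 38.1), 37 (26.1 to 51.0) and 41 (29.4 to 55.6). The intervals of neighbours in this order overlap for both marks. The H3K4me1 summit of RPLP2 lay 1859 bp inside the gene, and at its start RPLP2 held 28 (18.6 to 40.5). RPSA, a 40S protein also known as a laminin receptor, held 129 (108 to 153) and 47 (34.5 to 62.5). RPS19, the gene most often mutated in Diamond-Blackfan anaemia, held 110 (90.4 to 133) and 30 (20.2 to 42.8). RPS27A, whose protein is made as a fusion with ubiquitin, was marked with both at its ends.

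Of the 5 deepest H3K4me1 summits at these genes, 3 lay at the far end, next to another gene, and the others were those of RPL37 and RPL5. RPL26 held 167 fragments (143 to 194) at an end shared with KRABD2, against 33 (22.7 to 46.3) at its own listed start. RPS3, a 40S protein that also acts in DNA repair, held 150 (127 to 176) near an end of KLHL35, against 20 (12.2 to 30.9) at its start. RPL17 held 83 (66.1 to 103) near C18orf32 and had no H3K4me1 peak within 1 kb of its start. Of the 65 genes with a listed start and H3K4me1 at an end, 15 had their deepest H3K4me1 peak elsewhere than at the start, against 13.9% of all genes. For H3K27ac this held for 6 of 68 genes, against 9.60%, a share near the background: RPL17, RPL26, RPL4, RPL41, RPL6 and RPL7L1. The listed start of RPL6 lies well inside the gene. Its deepest H3K27ac summit, of 139 fragments, lay 74 bp from the upstream end of the gene itself, where PTPN11 also has an end. Among the shallowest H3K4me1 summits were those of RPL24 with 7 (2.81 to 14.4), RPL13A and RPS14 with 8 each (3.45 to 15.8), and RPL32 with 10 (4.80 to 18.4). RPL24 joins the subunits through a bridge, and RPL13A is also part of a complex that silences translation in inflammation. Their H3K27ac summits held 83 (66.1 to 103) and 91 (73.3 to 112).

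Because ends are shared with neighbours, the 70 genes with a listed start were also described from that start, in the direction of transcription. H3K27ac lay within 1 kb of 68 starts, against 62.6% of all genes, and its deepest summit there had a median of 105 fragments (83 to 143.25), against 74. RPL10L and RPL6 were without it, though RPL6 had H3K27ac at another of its listed starts and at its upstream end. H3K4me1 lay within 1 kb of 60 starts, against 65.3%, with a median of 28 fragments (17.75 to 38.25), against 35. The 10 genes without it were RPL10L, RPL17, RPL17-C18orf32, RPL19, RPL36, RPL41, RPL6, RPL7A, RPS18 and RPS4X. At all 60 starts with both marks H3K27ac was the deeper, against 79.8% of all such genes. The ratio had a median of 3.76 (2.86 to 6.23), against 1.91 (1.16 to 3.08) over 9465 genes.

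The start itself was often covered by H3K27ac without H3K4me1. An H3K27ac peak covered the start base of 64 of the 70 genes, against 54.3% of all genes. An H3K4me1 peak covered 34, against 46.5%. Of the 64 starts under H3K27ac, H3K4me1 covered 33 (51.6%), against 79.1% of all starts under H3K27ac. The starts under H3K27ac without H3K4me1 numbered 31 and included those of RPL24, RPL13A, RPS14 and RPL32. RPL10, RPL10L, RPL15, RPL26L1, RPL6 and RPS27A had no H3K27ac over the listed start base, and of these RPL10 had it upstream, with a summit of 90 fragments at -376 bp. RPL10 is among the last proteins to join the large subunit before it enters translation.

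The profile of H3K4me1 around these starts fell away within the gene. H3K4me1 covered 64.3% of the 70 genes at -100 bp, 48.6% at the start and 20.0% at 50 bp. At the 8520 other genes with H3K27ac over the start, it covered 84.3% at -50 bp, 79.3% at the start and 61.4% at 50 bp. The sets are unlike, because only 64 of the 70 ribosomal protein starts lay under H3K27ac. Over all genes H3K4me1 covered 49.4% at -50 bp, 46.5% at the start and 36.4% at 50 bp. H3K27ac covered 91.4% of the ribosomal protein starts and 95.7% of the positions at 50 bp, against 54.3% and 52.9% over all genes. At the 8520 other genes, chosen for H3K27ac over the start, it covered 96.1% at 50 bp. For H3K4me1, the gap to the 8520 genes was thus wider at 50 bp than upstream of the start. Compared with all genes, the ribosomal protein genes were covered more often upstream and less often at 50 bp.

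**Figure D2:**
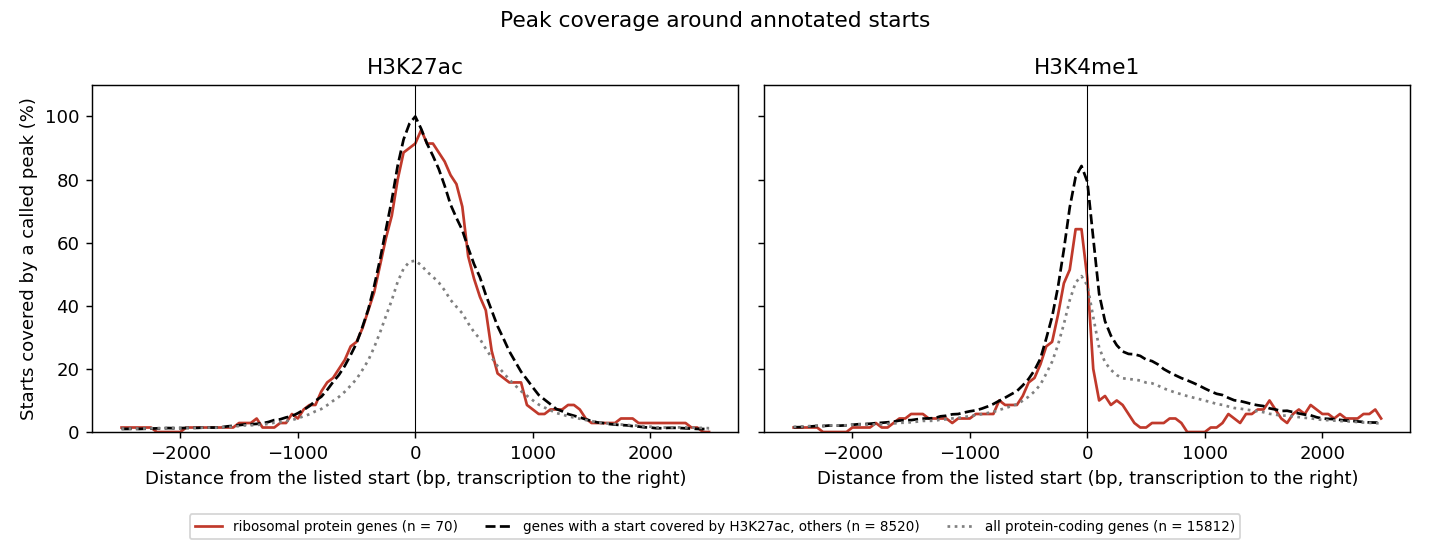
Share of starts covered by a called peak, by distance from the listed start in steps of 50 bp, for H3K27ac (left) and H3K4me1 (right), in the 70 ribosomal protein genes (red), 8520 other genes with H3K27ac over the start (dashed) and all 15812 genes (dotted). Of the ribosomal protein genes, 20.0% are covered by H3K4me1 at 50 bp, against 61.4% of the dashed group and 36.4% of all genes. Unlike the dashed group, the red group includes starts without H3K27ac.

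Summits of H3K4me1 also lay mainly upstream. The deepest H3K4me1 summit within 1 kb lay upstream of the start at 56 of 59 genes and downstream at 3, RPL15, RPL26L1 and RPS27A. Over all genes 31.6% lay downstream. Its median position was -121 bp (-248.5 to -64.5), against -68 bp over all genes. Among the starts covered by H3K27ac, 0 of 55 ribosomal protein genes had it downstream, against 26.5% of all genes with such a start. For H3K27ac, 25 of 68 summits lay downstream, against 45.7%, with a median of -30 bp (-99 to 36.75), against -14.5 bp. The H3K4me1 summit lay farther upstream than the H3K27ac summit at 45 of the 59 genes, against 58.2% of all genes with both summits. At RPL37A the summits were at 15 bp for H3K27ac and -31 bp for H3K4me1, and at RPL22 at 39 and -56 bp. RPS7 had its H3K27ac summit inside the gene at 691 bp and its H3K4me1 summit at -41 bp. RPS28, whose start lies next to NDUFA7, had both upstream, at -49 and -36 bp. The H3K4me1 count depends on the window: within 2.5 kb, 10 of 64 genes had the deepest summit downstream. The 31.6% over all genes is for 1 kb, and no all-gene share is given for 2.5 kb.

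**Figure D3:**
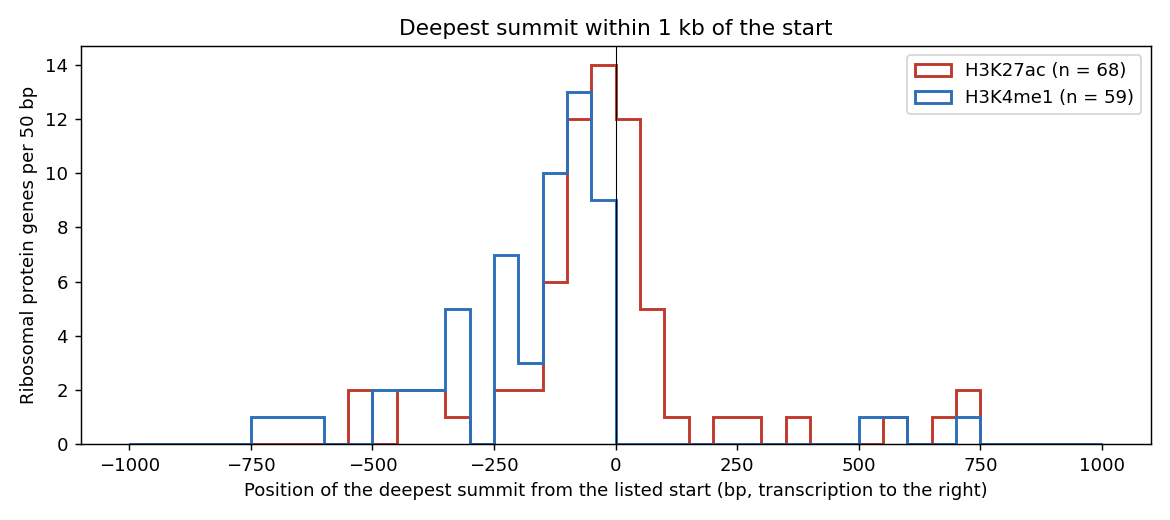
Number of ribosomal protein genes by the position of the deepest summit within 1 kb of the listed start, in bins of 50 bp with transcription to the right, for H3K27ac (red, 68 genes) and H3K4me1 (blue, 59 genes). H3K4me1 summits pile up on the upstream side, with 3 downstream, while 25 H3K27ac summits lie downstream.

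The lower H3K4me1 was also seen at matched H3K27ac depth. Of genes with 85 to 144 H3K27ac fragments at an end, the 42 ribosomal protein genes with H3K4me1 had a median of 33 fragments (20.25 to 43.25), and the 3229 other genes had 47 (32 to 68). Above 144 fragments the medians were 40 in 21 ribosomal protein genes and 56 in 1683 others. Below 85 fragments they were 27 in 19 and 31 in 6762, but there the H3K27ac medians themselves were 65 and 42. The interquartile ranges overlap in the middle band. The other genes were longer, with a median of 29013 bp against 5081 bp in that band, and the part of gene length in the difference was not tested. Across the 75 core genes with both marks, the Spearman correlation of the pileups was 0.33, against 0.43 across 11756 genes. These are descriptions across genes, which are not replicates and share the same libraries.

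Peaks rather than genes gave a similar comparison. Within 2.5 kb of the ribosomal protein gene ends lay 157 H3K27ac peaks, of which 119 (75.8%, 68.3 to 82.3) shared at least 1 bp with an H3K4me1 peak. At the ends of all protein-coding genes this was 83.1% (82.6 to 83.6) of 18786 peaks. In the other direction, 140 of 196 H3K4me1 peaks (71.4%, 64.6 to 77.6) shared a base with H3K27ac, against 65.3% (64.8 to 65.8). When at least 50% of the H3K27ac peak had to be shared, the first share was 36.3%. The share over all protein-coding genes under that rule is not given, so 36.3% cannot be set against a background.

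The paralogues of core proteins ranged from unmarked to deeper than their parents. RPL10L, a copy used in male germ cells, had no peak of either mark in the gene or within 50 kb of it, while RPL10 held 90 H3K27ac (72.4 to 111) and 48 H3K4me1 fragments (35.4 to 63.6). RPL39L, also known from the testis, had none within 2.5 kb, against 90 (72.4 to 111) and 13 (6.92 to 22.2) at RPL39. RPL26L1 had none within 1 kb of its listed ends, but near its listed start inside the gene it held 161 H3K27ac (137 to 188) at 718 bp and 22 H3K4me1 fragments (13.8 to 33.3) at 556 bp. RPL3L, a form of striated muscle, held 58 (44 to 75) and 43 (31.1 to 57.9) at an end it shares with MSRB1, so the peak cannot be given to either gene. RPL7L1 held 72 (56.3 to 90.7) and 47 (34.5 to 62.5) near an end of PEX39, and 51 (38.0 to 67.1) and 6 (2.20 to 13.1) at its own start.

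RPL22L1, RPL36AL and RPS27L were marked at their own starts. RPL22L1, whose level RPL22 is known to restrain, held 127 H3K27ac (106 to 151) and 41 H3K4me1 fragments (29.4 to 55.6), below the 188 (162 to 217) and beside the 38 of RPL22. RPL36AL held 179 (154 to 207) and 41 (29.4 to 55.6), with an end of MGAT2 close by, above the 58 (44 to 75) and 27 (17.8 to 39.3) of the X-linked RPL36A. RPS27L, a target of p53, held 118 (97.7 to 141) and 36 (25.2 to 49.8), with intervals that overlap those of RPS27 at 96 (77.8 to 117) and 31 (21.1 to 44.0). The start of RPL22L1 carries a pyrimidine run of 10 bases and that of RPL22 carries 11, both printed above, and RPL10L has none.

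**Figure D4:**
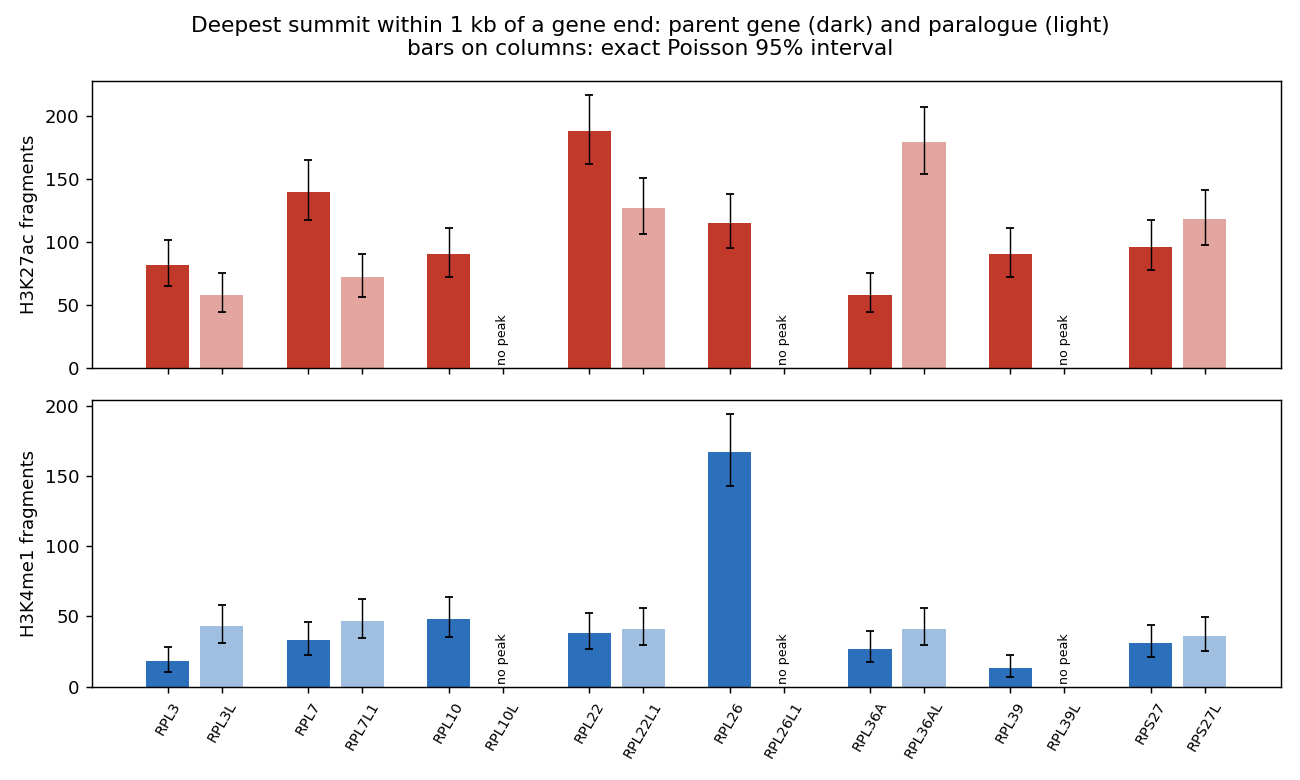
Fragments at the deepest H3K27ac (top) and H3K4me1 (bottom) summit within 1 kb of a gene end for each parent gene (dark) and its paralogue (light), with exact Poisson 95% intervals. RPL10L, RPL26L1 and RPL39L have no peak, and RPL36AL at 179 H3K27ac fragments is above RPL36A at 58.

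Some genes cannot be read apart. RPS10 and RPS10-NUDT3 share their deepest peaks, of 94 H3K27ac and 19 H3K4me1 fragments, and RPL36A and RPL36A-HNRNPH2 share peaks of 58 and 27. The 85 genes with H3K27ac therefore rest on 83 distinct deepest peaks and the 82 with H3K4me1 on 80. RPL17-C18orf32 starts with RPL17, and both had 98 fragments (79.6 to 119) of H3K27ac at that start. A neighbour outside this gene set also reached the start of 17 of the 70 genes, with a protein-coding gene end within 1 kb. Examples are RPS27 with RAB13 and RPL18 with SPHK2. The share over all genes is not given. These 17 had a median of 96 H3K27ac and 34 H3K4me1 fragments. The 53 other genes, which include RPS10, RPL17 and RPL17-C18orf32, had 114 and 31.5.

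The 4 core genes on the X had H3K27ac summits of 52 to 90 fragments with a median of 74, against a median of 114 (range 32 to 413) on the autosomes. RPS4X, which escapes X inactivation in female cells, had the shallowest of them, in a peak over its start, and no H3K4me1 peak in the gene or within 2.5 kb. The number of X copies in these cells was not analysed here, so copy number and mark per copy cannot be told apart.

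Ribosomal protein genes often carry small nucleolar RNA genes, which guide modification of ribosomal RNA, in their introns. A small nucleolar RNA gene lay inside 29 of the 77 core genes (37.7%), 60 such RNA genes in all, against 231 of the 19974 protein-coding genes (1.16%). RPL3, RPL4, RPL7A, RPL13A and RPL23A were among those with 4 each. The host genes had a median of 102 H3K27ac fragments (86 to 146) and 33 of H3K4me1, and the 48 core genes without had 113 (85 to 148.75) and 32. These ranges overlap almost wholly.

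Promoter letters were searched in the 300 bases from 250 before to 50 after the start, on both strands, and a match is a description of letters, not a binding site. The ETS motif CCGGAAG was present at 23 of 70 genes (32.9%, 22.1 to 45.1), against 14.1% of all promoters. The YY1 motif AAGATGGC was present at 7 (10.0%), against 3.86%, and lay at a median of 16 bases after the start. SP1 letters, GGGCGG, were present at 38 (54.3%), against 58.3%. TATAAA was present at 7 (10.0%), against 9.75%, among them RPS28, RPL22L1 and RPL10L, where it can be read in the sequences above. CCAAT was present at 25 (35.7%), against 36.4%, the palindrome CACGTG at 4 (5.71%), against 8.82%, and the NRF1 consensus at RPL10A alone (1.43%), against 1.77%. No motif in the list contains another, though matches to CCGGAAG and AAGATGGC can share the letters AAG.

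Depth was also described with and without these letters. Genes with CCGGAAG had a median of 99 H3K27ac fragments at an end and those without had 112, while H3K4me1 had medians of 36 and 32. With and without GGGCGG the H3K27ac medians were 122 and 99. All 45 starts with a run of at least 8 pyrimidines lay under H3K27ac, with a median of 109 fragments (85 to 143) within 1 kb of the start. Of the 25 starts with a shorter run, 19 lay under H3K27ac, with a median of 98 (82.5 to 138.5). The uncovered ones were RPL10, RPL10L, RPL15, RPL26L1, RPL6 and RPS27A, all but RPL10L with more than 1 listed start. H3K4me1 covered 25 of the 45 and 9 of the 25. The deepest H3K4me1 summit lay upstream at 41 of 41 genes with a long run and at 15 of 18 with a shorter one. The difference is 3 genes, RPL15, RPL26L1 and RPS27A. The part of the choice of listed start in these counts was not tested.

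Other parts of the protein synthesis machinery give a frame for these values. The mitochondrial ribosomal proteins, which serve the separate ribosome of the mitochondrion, had H3K27ac at 74 and H3K4me1 at 75 of 77 genes, with medians of 87 (65.25 to 126.5) and 33 fragments. MRPL24, MRPL35 and MRPL44 lacked H3K27ac and MRPL24 and MRPL34 lacked H3K4me1, while MRPS7 (300 H3K27ac fragments) and MRPL49 (219, in a peak shared with FAU) were deepest. The initiation and elongation factors and other TOP genes had both marks at 30 of 31 genes, all but EIF3C, with medians of 124.5 (89.75 to 174.75) and 31.5. NPM1, a nucleolar chaperone, was deepest at 289, followed by TPT1 at 271. The H3K27ac range of the cytosolic ribosomal proteins, 85 to 144, overlapped those of both lists.

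The ribosome biogenesis factors had H3K27ac at 39 and H3K4me1 at 37 of 40 genes, with medians of 86 (49.5 to 114.5) and 28 fragments. BYSL had neither mark, NOP10 and SBDS lacked H3K4me1, and FBL (253), the methyltransferase guided by box C/D RNAs, and GNL3 (230) were deepest. The regulators, such as MTOR, LARP1 and the S6 kinases, had both marks at 18 of 18 genes, with medians of 100 (68.5 to 123.5) and 40. RPS6KB1, a kinase of RPS6, held 242 and LARP1B 171. Proteasome subunits, which degrade proteins and are also made in fixed proportions, had H3K27ac at 36 and H3K4me1 at 35 of 39 genes, with medians of 95.5 (81.25 to 128.25) and 31. PSMA6, PSMA8 and PSMB11 had neither mark and PSMA7 lacked H3K4me1, while PSMC4 (229) and PSMD12 (201) were deepest. A ratio above 1 was found at 70 of 73, 35 of 37, 17 of 18 and 31 of 35 genes with both marks in the mitochondrial, biogenesis, regulator and proteasome lists, and at 30 of 30 in the TOP list. More H3K27ac than H3K4me1 was common to these lists and is not shown to be particular to ribosomal proteins.

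Ribosomal proteins named outside the symbol rule were described in the same way. FAU, a ubiquitin-like fusion that yields the 40S protein eS30, held 219 H3K27ac and 118 H3K4me1 fragments, in the same peaks as the neighbouring MRPL49. RACK1, a scaffold on the 40S subunit, held 86 of H3K27ac and had no H3K4me1 peak.

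**Figure D5:**
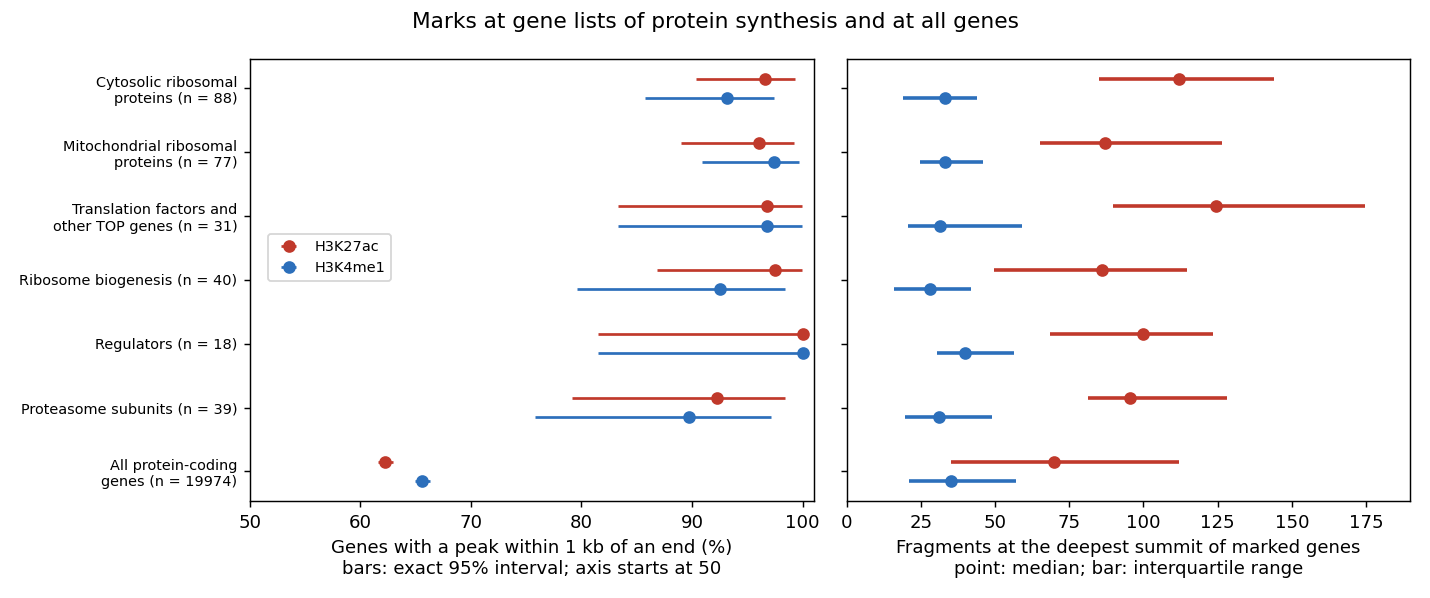
Left, percent of genes with a peak within 1 kb of an end, with exact Clopper-Pearson 95% intervals and an axis from 50. Right, median and interquartile range of fragments at the deepest summit of marked genes, for H3K27ac (red) and H3K4me1 (blue). The cytosolic ribosomal proteins have medians of 112 and 33 fragments, against 70 and 35 over all protein-coding genes.

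The study's design concerned super-enhancers, so the distance of these genes to long H3K27ac clusters away from gene ends was measured. Of 25235 regions made by joining H3K27ac peaks over gaps of up to 12.5 kb, 1326 passed the slope threshold and are called super-enhancer-like. An end of 14 ribosomal protein genes lay within 50 kb of one, among them RPL23, RPL26L1, RPL35, RPL3L, RPL5, RPLP0, RPLP1, RPS14, RPS2, RPS21, RPS27A, RPS3 and RPS7. This is 15.9% (8.98 to 25.2), against 13.5% of all protein-coding genes, a share near the background. The closest were RPL26L1, which such a region overlapped in part (chr5:172924162-172960167), RPS7 at 4.46 kb, RPS3 at 5.98 kb, RPLP1 at 6.42 kb and RPL35 at 6.50 kb. The highest-ranked region was that near RPLP1, at rank 126 (chr15:69462620-69485264), with 7 H3K27ac and 12 H3K4me1 peaks. RPS2 and RPL3L lay near the same region, at 39.1 and 49.2 kb. Nearness alone does not tie a region to a gene. The count depends on how regions are built, with 8 genes from the more significant peaks only and 48 when peaks at gene ends are kept, against 25.0% of all genes in the latter case.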

How the data were processed

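Per the submitters' processing notes, BWA, MACS2 and the hg38 genome were used, and versions and settings are not given in the sources used here. Of the deposited values, the fold ratio compares the summit with the local background, −log10 p and −log10 q give its significance (p-value and q-value of the authors' peak caller), and the score repeats −log10 q as a whole number. Positions and summit offsets of the deposited lists are in bp. The pileup k at each summit was solved from the deposited fold, (k + 1) / (background + 1), and the Poisson p-value, within 0.001 in −log10 p or a relative 0.0001, for 100% of peaks. For 228 H3K27ac and 241 H3K4me1 peaks more than 1 value was possible. Total depth is unknown. This solution and the search for peaks within a window were tested on simulated data, but the region calls were not.

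Gene ends came from the RefSeq GRCh38 table, and strand, starts and sequences from the RefSeq promoter table for GRCh38.p14, using the outermost listed start (12 genes had more than 1). Super-enhancer-like regions were joined from H3K27ac peaks, except those with no part beyond 2.5 kb from gene ends, and ranked by fold times length. Chosen to be named were the 10 deepest and 5 shallowest H3K27ac genes, the 5 deepest and 5 shallowest H3K4me1 genes, all unmarked genes, paralogues, readthrough loci and genes near such regions. For some of these, such as RPL19, RPL23 and RPS21, no pileup is given, and for RPL18 only that of H3K27ac. Other genes described by role (RPL11, the stalk genes, RPSA, RPS19, RPL10 and RPL6) were chosen after their values were seen. The members and lists were chosen with earlier results of these data known. GAS5, in the TOP list, is not protein-coding, which left 31 of 32 genes. A few genes are counted but not reported here by name. No test was made. Reads that match processed pseudogenes can be lost or misplaced in exons, and their part was not tested. Python 3.11.15, pandas 2.3.3, numpy 2.4.6, scipy 1.17.1 and matplotlib 3.10.9 were used.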

Additional observations from a re-analysis of the deposited data

How the results depend on the processing

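Of 50 alternative settings over these counts, medians and shares, 44 stayed within 1.5 times the main count or within the spread of the main value, and 6 did not; they covered windows of 500 bp and 2.5 kb, peaks with −log10 q of at least 5 or at least 10 fragments, listed starts only, and the core genes alone. The genes with H3K27ac at an end stayed at 85 of 88 under the 2 windows and both peak limits, and those with H3K4me1 ranged from 79 to 85. The share of H3K27ac peaks overlapping H3K4me1 was 36.3% instead of 75.8% when at least 50% of the peak had to be shared, with no all-gene share given for that rule. The genes near a super-enhancer-like region numbered 14, but 8 with −log10 q of at least 5, 48 with peaks at gene ends kept and 6 at a distance of 20 kb, where the background was 8.86%, 25.0% and 7.74% of all genes. Ranking by pileup gave 12, against 9.91% of all genes. The deepest H3K4me1 summit lay downstream at 3 genes, at 10 with a window of 2.5 kb, and at 1 with the innermost listed start, an alternative chosen after seeing the data. No all-gene share is given for that window or that start. The cause of the differences between settings was not tested. By construction, a shorter distance to the same regions cannot leave more genes near one. No paired analysis was possible because each mark has 1 library and no result comes from a test. Leaving out a library would leave no value for its mark.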

Other observations

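Ribosomal protein pseudogenes, processed or not, were seldom marked, at shares near those of other pseudogenes. This comparison was added after the data were seen. Of 1887 such pseudogenes with no protein-coding end within 2 kb, 76 (4.03%, 3.19 to 5.02) had H3K27ac within 1 kb of an end and 175 (9.27%, 8.003 to 10.7) had H3K4me1. Of 13511 other pseudogenes away from protein-coding ends, 5.20% (4.83 to 5.59) and 8.05% (7.59 to 8.52) had them. The marked ribosomal protein pseudogenes had medians of 10.5 H3K27ac and 15 H3K4me1 fragments, against 112 and 33 at the protein-coding genes. The deepest for H3K27ac were RPL7L1P16 with 125 H3K27ac and 94 H3K4me1 fragments and RPL39P32 with 105 of H3K27ac and no H3K4me1 peak.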
